A study of Homo sapiens with 6 samples.

Results

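ZNF genes encode proteins with zinc fingers, mostly of the C2H2 kind, and the abundant members of this family were compared between triptolide-treated and untreated cells. The cells were of MIA PaCa-2, an established human line derived from a carcinoma of the pancreas. The set holds the 142 autosomal protein-coding genes with a symbol of ZNF plus a number whose raw level averaged at least 10 CPM (counts divided by the library total and scaled per 1e6) over the 3 untreated libraries. They are 142 of 455 autosomal protein-coding ZNF genes and of 35716 genes in the count table. Members were thus chosen by their untreated level, which is given as a description. The triptolide group held 3 libraries of Miapaca-2 cells, genotype WT, kept with 10 nM triptolide for 24 h. The untreated group held 3 libraries of the same line and genotype, kept for 24 h in DMEM with fetal bovine serum and no drug. Sample titles set these groups, although the design text of the series uses the word control for the drug-treated cells. Triptolide, a plant diterpenoid, acts on XPB, the helicase that opens promoters as part of TFIIH.

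In a C2H2 finger a zinc ion holds together a short fold whose helix reads a few bases of DNA, and tandem fingers give each protein its own target sequence. Many ZNF proteins also carry a KRAB domain, which recruits TRIM28 and through it the histone methyltransferase SETDB1 and HP1 proteins, a machinery best known for silencing transposable elements. Human KRAB genes arose largely by tandem duplication and stand in clusters, most of them on chromosome 19. Other ZNF proteins lack KRAB and act as activators, as RNA-binding proteins, or in ribosome quality control and mitosis.

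The members lay on 20 chromosomes, 39 of them on chromosome 19. A KRAB A box was found in 57 by a match to at least 7 of 11 fixed positions of its pattern in the translated coding sequence. A more divergent box would be missed, so members without a match may still hold one. The number of C2H2 fingers found by pattern ran from 0 to 31, with a median of 9, and 3 members had 0 by this pattern. The median untreated raw level was 22.9 CPM. It was 10 to 20 CPM in 69 members, and at least 40 CPM in 34. Just inside the level were ZNF500 at 10.6 and ZNF226 at 10.3 raw CPM, and just outside were ZNF470 and ZNF304 at 9.89 raw CPM each. In the triptolide libraries 131 of the 142 also averaged at least 10 raw CPM, and 31 ZNF genes that were under the level in untreated cells reached it there.

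Promoters are shown for the 3 risen members that stand close together on chromosome 19, ZNF83, ZNF331 and ZNF160, and for the pair of fallen members with the smallest adjusted p, ZNF639 and ZNF787. Each is the RefSeq sequence (GRCh38.p14) from 250 bases before to 50 bases after the first start listed for the gene, written in the direction of transcription. ZNF83 is chr19:52690447-52690746 on the minus strand, ZNF331 is chr19:53520764-53521063 on the plus strand and ZNF160 is chr19:53103373-53103672 on the minus strand. ZNF639 is chr3:179322626-179322925 on the plus strand and ZNF787 is chr19:56121246-56121545 on the minus strand. Capitals mark matches, on either strand, to any of 5 motifs. These are TATAAA, known as the TATA box, the activator site CCAAT, and GGGCGG, known as the GC box. The motif bound by ZNF143 was searched by the letters ACTACAA near its start and by the letters TTCCCAG in its middle.
ZNF83: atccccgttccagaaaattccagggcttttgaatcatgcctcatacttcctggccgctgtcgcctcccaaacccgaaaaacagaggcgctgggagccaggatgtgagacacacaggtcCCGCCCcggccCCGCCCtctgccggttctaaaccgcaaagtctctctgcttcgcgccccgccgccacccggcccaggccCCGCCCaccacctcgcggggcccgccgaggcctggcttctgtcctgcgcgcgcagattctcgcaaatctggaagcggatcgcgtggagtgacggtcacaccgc
ZNF331: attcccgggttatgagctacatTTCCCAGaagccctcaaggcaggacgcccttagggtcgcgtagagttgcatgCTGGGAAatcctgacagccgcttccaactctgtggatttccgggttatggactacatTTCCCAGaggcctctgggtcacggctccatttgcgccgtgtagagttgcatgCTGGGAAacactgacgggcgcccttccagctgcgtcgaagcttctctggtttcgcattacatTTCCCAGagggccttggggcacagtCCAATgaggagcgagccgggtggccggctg
ZNF160: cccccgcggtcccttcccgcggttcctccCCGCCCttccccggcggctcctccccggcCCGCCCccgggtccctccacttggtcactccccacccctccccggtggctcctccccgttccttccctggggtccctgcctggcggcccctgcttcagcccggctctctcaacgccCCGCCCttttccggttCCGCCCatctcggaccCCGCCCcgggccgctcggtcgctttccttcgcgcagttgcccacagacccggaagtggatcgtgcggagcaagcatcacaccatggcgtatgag
ZNF639: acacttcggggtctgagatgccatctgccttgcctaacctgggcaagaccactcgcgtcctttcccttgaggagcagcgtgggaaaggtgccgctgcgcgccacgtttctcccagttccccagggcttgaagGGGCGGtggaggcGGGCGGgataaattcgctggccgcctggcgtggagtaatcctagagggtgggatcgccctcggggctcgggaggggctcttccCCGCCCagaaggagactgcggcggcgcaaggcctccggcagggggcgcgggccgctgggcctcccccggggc
ZNF787: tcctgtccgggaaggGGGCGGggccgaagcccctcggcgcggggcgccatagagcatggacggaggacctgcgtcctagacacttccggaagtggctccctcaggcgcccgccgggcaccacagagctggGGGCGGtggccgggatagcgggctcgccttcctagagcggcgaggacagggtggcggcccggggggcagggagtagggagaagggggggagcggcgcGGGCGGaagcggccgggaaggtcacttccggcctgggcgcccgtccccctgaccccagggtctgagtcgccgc

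GC boxes were the only matches in the promoters of ZNF83 (3), ZNF160 (5), ZNF639 (3) and ZNF787 (3). The ZNF331 promoter instead held 5 matches to TTCCCAG and 1 CCAAT, and this motif was added to the search after that promoter had been read. No shown match overlapped another. Of the members, 124 had a promoter in the RefSeq table. GGGCGG was present in 84 of these 124 (67.7%), against 44.6% of 27305 promoters of all genes, 1 start a gene. TATAAA was present in 3 (2.42%), against 12% of all, and CCAAT in 48 (38.7%), against 35.7%. ACTACAA was present in 9 (7.26%), against 2.95%, and TTCCCAG in 22 (17.7%), against 11% of all. Median promoter GC was 64.5% for members and 58.3% for all genes. A match describes these letters only.

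Total counts ran from 16302961 to 23262713 in the triptolide libraries and from 17566458 to 19600354 in the untreated libraries. Triptolide replicate 1 and untreated replicate 3 stood apart from the rest of their groups. Untreated replicates 1 and 2 differed by a chi-square per degree of freedom of 4.96, but they differed from replicate 3 by 40.8 and 30. Triptolide libraries differed from one another by 25.6 to 61.9. Pairs across the groups differed by 27.6 (triptolide replicate 3, untreated replicate 1) to 78.4 (triptolide replicate 1, untreated replicate 3), which overlaps the values within groups. Whether replicates were separate cultures is not stated, so a p-value reflects only the spread among the 3 libraries of each group, which may be technical. Every level is a share of its library, and in bulk RNA fewer cells of a kind and less RNA per cell cannot be told apart. Of 6 markers of the carcinoma line, KRT8, KRT18, KRT19 and VIM were abundant in every library, whereas EPCAM and CDH1 were near 0. KRT18 and VIM fell. Of 4 acinar markers with a row, PRSS1 and CELA3A had no count in untreated libraries, and the 4 summed to 3.23 to 4.91 CPM with triptolide and 2.07 to 3.25 CPM without. Of 17 placental trophoblast markers 14 rose and none fell, with sums of 612 to 969 CPM in triptolide libraries and 58.4 to 90.1 CPM in untreated libraries, where HSD3B1 and GCM1 were at 0. Of 6 blood markers 4 rose and none fell, with sums of 12.3 to 24.2 against 2.99 to 4.04 CPM. Of 12 fibroblast markers 6 fell and none rose, with sums of 346 to 442 against 622 to 771 CPM, and FAP was at 0 with triptolide. In the edgeR test described below 10.0% of all genes tested rose and 5.82% fell. The marker lists were taken with earlier results of these data known, so their counts are a description only. The part of these marker shifts in the ZNF results was not tested.

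Few abundant ZNF genes passed the test of a change, with about as many rising as falling. All 142 members passed the low-count filter, with at least 56 counts in every library. In edgeR's quasi-likelihood test, with an adjusted p under 0.05 over all 15202 genes tested, 7 members rose (4.93%) and 8 fell (5.63%). Among all genes tested 10.0% rose and 5.82% fell. The term genes of the same level stands for the 8085 autosomal protein-coding genes that averaged at least 10 raw CPM untreated. Of these 3.34% rose and 7.19% fell. In either direction 10.6% of members passed, against 10.5% of the genes of the same level and 15.9% of all genes. The members' share in either direction was thus near that of the genes of the same level. That set has the same lower bound of 10 raw CPM but no upper bound, and its median untreated level was above that of the members. Levels were not matched beyond this bound, so the shares that rose and fell are set side by side as a description only.

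The members' median log2 fold change was -0.063, with an interquartile range of -0.30 to 0.19, and this median was 0.002 with scaling by library totals and 0.113 with scaling on ribosomal protein genes. The median was -0.103 for genes of the same level and -0.004 for all genes tested. Fitted values ran from -1.02 (ZNF787) to 0.84 (ZNF251), and 110 members lay within 0.5 of 0 on the log2 scale. Only ZNF787 reached a fitted 2-fold change (0.704% of members), against 1.77% of the genes of the same level and 10.1% of all. The groups did not overlap for 52 members (36.6%), against 32.3% of the genes of the same level and 36.7% of all. They were higher with triptolide for 21 members (14.8%), against 10.5% of the genes of the same level and 19.8% of all, and lower for 31 (21.8%), against 21.9% and 16.9%. Summed over members, raw levels were 4390, 4340 and 4810 CPM in the triptolide libraries and 4700, 4530 and 3970 CPM in the untreated libraries. The sums of the groups overlapped.

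**Figure D1:**
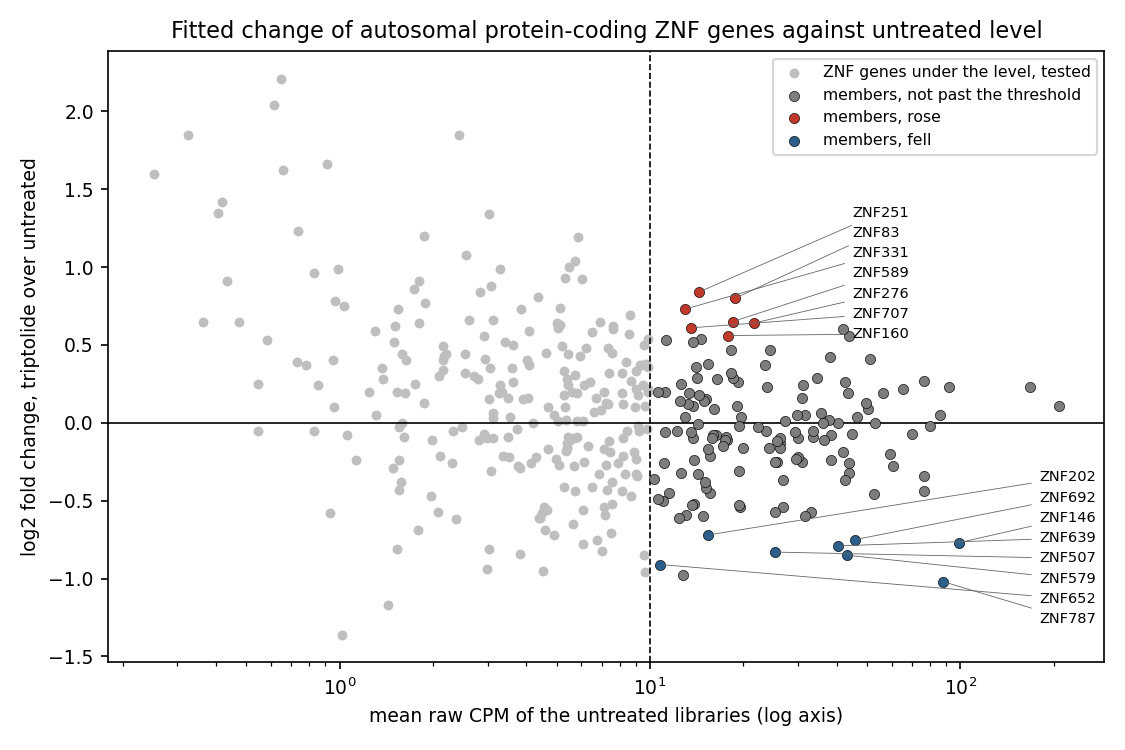
Fitted log2 fold change of triptolide over untreated (vertical axis) against the mean raw CPM of the untreated libraries (horizontal log axis) for tested autosomal protein-coding ZNF genes; the dashed line marks the level of 10 raw CPM. The 7 risen members had untreated levels from 13 to 21.6 raw CPM, and the 8 fallen ones from 10.8 to 98.8 raw CPM.

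The 7 members that rose were ZNF251, ZNF83, ZNF331, ZNF589, ZNF276, ZNF707 and ZNF160, and a KRAB A box was found in each of them except ZNF276. ZNF251, a KRAB gene on chromosome 8 with 12 fingers, had 24.0, 27.7 and 27.0 CPM (TMM-scaled, as all values by library below) in the triptolide libraries, against 15.8, 13.6 and 14.6 CPM in the untreated libraries. All 3 triptolide values lay above all untreated ones, and the log2 fold change was 0.84 ± 0.17 (SE), with an edgeR adjusted p of 0.00561. ZNF707, the other risen gene of chromosome 8, had 25.1, 19.2 and 20 CPM with triptolide, against 14.5, 12.2 and 15.3 CPM without. The groups did not overlap, with triptolide replicate 1 the highest library (log2 fold change 0.61 ± 0.18, edgeR adjusted p = 0.0406).

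ZNF83, a KRAB gene with 14 fingers, had 30.2, 36.1 and 33.9 CPM in triptolide-treated cells, against 20.7, 18.2 and 18.9 CPM in untreated cells. The groups were well apart (log2 fold change 0.80 ± 0.16, edgeR adjusted p = 0.00714). ZNF331, which is imprinted and is rearranged in some thyroid adenomas, had 20.3, 21.1 and 24.5 CPM with triptolide, against 14.5, 13.9 and 11.5 CPM without. Its 6 libraries also separated by group (log2 fold change 0.73 ± 0.18, edgeR adjusted p = 0.0166). ZNF160, with 20 fingers, had 23.9, 29.4 and 26.9 CPM with triptolide, against 19.2, 19.1 and 16.2 CPM without. Each triptolide library was above each untreated one (log2 fold change 0.56 ± 0.17, edgeR adjusted p = 0.0436).

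ZNF589, a KRAB gene described in haematopoietic cells as SZF1, had 33.9, 26.9 and 28.5 CPM with triptolide, against 18.9, 18.3 and 19.6 CPM without. The untreated libraries were close together and all lower (log2 fold change 0.65 ± 0.17, edgeR adjusted p = 0.0207). ZNF276 had 42.1, 27.8 and 33.4 CPM with triptolide, against 25.5, 19.9 and 20.8 CPM without. The groups did not overlap, but the gap between triptolide replicate 2 and untreated replicate 1 was small (log2 fold change 0.64 ± 0.19, edgeR adjusted p = 0.0432). ZNF276 shares 35.4% of the 100-base windows of its transcript with FANCA, whose gene runs into it on the other strand, so its counts are uncertain. None of the other 6 risen genes shared a window with another gene.

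Of the 7 risen genes, ZNF251 alone stayed past the threshold whichever single library was left out. Without untreated replicate 2 the edgeR adjusted p was 0.0559 for ZNF83, 0.0661 for ZNF331, 0.113 for ZNF589, 0.182 for ZNF276, 0.202 for ZNF707 and 0.137 for ZNF160. The calls were also lost without untreated replicate 1 for ZNF160 (0.111), ZNF276 (0.0598), ZNF589 (0.0831) and ZNF707 (0.107), and without untreated replicate 3 for ZNF160 (0.112), ZNF276 (0.101), ZNF331 (0.0536) and ZNF707 (0.0506). They were lost without triptolide replicate 1 for ZNF276 (0.0758) and ZNF707 (0.0504), without replicate 2 for ZNF160 (0.116), and without replicate 3 for ZNF160 (0.129), ZNF276 (0.0977), ZNF331 (0.0855), ZNF589 (0.0596) and ZNF707 (0.0851). Each of the 7 had a positive fold change under every alternative run.

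The 8 members that fell were ZNF787, ZNF652, ZNF579, ZNF507, ZNF639, ZNF146, ZNF692 and ZNF202. By the pattern no KRAB A box was found in any of them, with ZNF639 closest at 6 of 11 positions and ZNF202 and ZNF579 at 5. ZNF787, a 7-finger gene of chromosome 19, had 61.2, 39.0 and 34 CPM in the triptolide libraries, against 77.4, 81.7 and 113 CPM in the untreated libraries. The groups did not overlap, and the extremes were triptolide replicate 3 and untreated replicate 3. The log2 fold change was -1.02 ± 0.23 (SE), with an edgeR adjusted p of 0.0118. ZNF579, its neighbour in the same run of ZNF genes, had 32.5, 23.1 and 18.5 CPM with triptolide, against 39.0, 35.8 and 58 CPM without. The groups were separate by a narrow gap, and untreated replicate 3 was far above the other untreated libraries (log2 fold change -0.85 ± 0.24, edgeR adjusted p = 0.0334).

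ZNF652, a repressor that works with the corepressor CBFA2T3, had 4.16, 6.78 and 6.51 CPM with triptolide, against 10.4, 11 and 11.7 CPM without. Every triptolide value was below every untreated value (log2 fold change -0.91 ± 0.22, edgeR adjusted p = 0.0140). ZNF639, also called ZASC1 and encoded in a part of chromosome 3 that is often amplified in squamous carcinomas, had 19.2, 25.1 and 27.2 CPM with triptolide, against 42.2, 39.4 and 42.3 CPM without. The groups were well apart (log2 fold change -0.79 ± 0.18, edgeR adjusted p = 0.0105). ZNF202, a SCAN-domain repressor of genes of lipid metabolism, had 8.82, 9.49 and 10.4 CPM with triptolide, against 16.3, 15.2 and 15.8 CPM without. Replicates were tight in both groups (log2 fold change -0.72 ± 0.17, edgeR adjusted p = 0.0151).

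ZNF146, also called OZF, consists almost wholly of fingers and is overexpressed or amplified in some pancreatic carcinomas. It had 41.6, 68.6 and 67.0 CPM with triptolide, against 103, 109 and 90.1 CPM without, and 7.0% of its windows are shared with ZNF565. The groups did not overlap (log2 fold change -0.77 ± 0.20, edgeR adjusted p = 0.0234). ZNF692, known as AREBP for its binding to an AICAR response element, had 32.5, 24.3 and 27.4 CPM with triptolide, against 43.9, 39.1 and 58.3 CPM without. All triptolide values were lower (log2 fold change -0.75 ± 0.20, edgeR adjusted p = 0.0227). ZNF507 had 12.5, 12.2 and 18.2 CPM with triptolide, against 31.5, 28.2 and 17 CPM without. Here the groups overlapped, since untreated replicate 3 was below triptolide replicate 3 (log2 fold change -0.83 ± 0.25, edgeR adjusted p = 0.0388).

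ZNF787, ZNF652 and ZNF639 stayed past the threshold whichever single library was left out. Calls were lost without untreated replicate 1 for ZNF146 (edgeR adjusted p = 0.0582), ZNF202 (0.0615) and ZNF507 (0.13), and without untreated replicate 2 for ZNF146 (0.0874), ZNF202 (0.0581) and ZNF507 (0.113). Without untreated replicate 3 they were lost for ZNF579 (0.0977) and ZNF692 (0.0636), and without triptolide replicate 1 for ZNF507 (0.115). Without triptolide replicate 2 they were lost for ZNF507 (0.0964), ZNF579 (0.0586) and ZNF692 (0.0592), and without replicate 3 for ZNF579 (0.124) and ZNF692 (0.0761). The fold change of each of the 8 was negative under every alternative run. With scaling on ribosomal protein genes none of the 8 passed, and of the risen genes only ZNF251 and ZNF83 did, while the median of all genes tested was then 0.174 on the log2 scale.

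**Figure D2:**
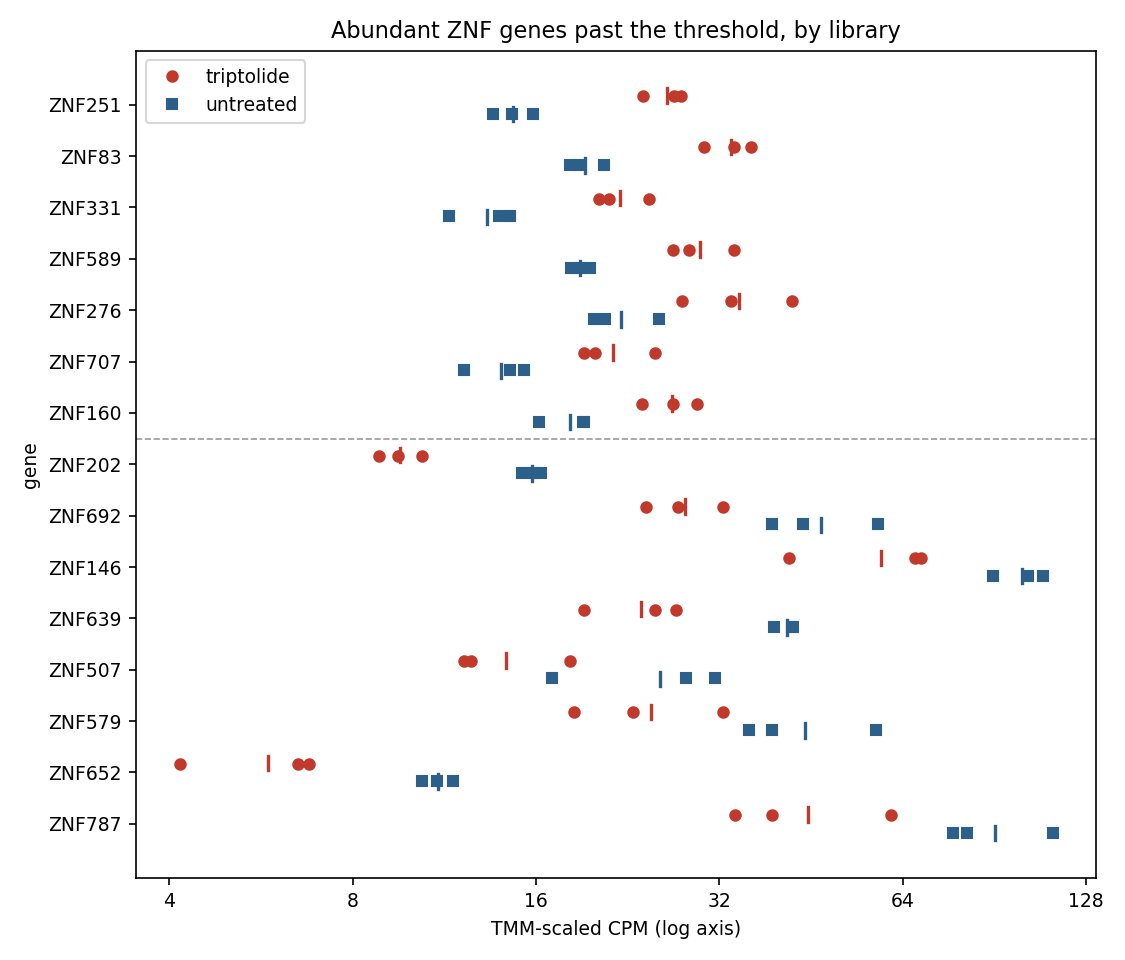
TMM-scaled CPM (log axis) of the 15 members past the threshold in the triptolide libraries (circles, upper row of each gene) and the untreated libraries (squares, lower row), with vertical ticks at the group means. The dashed line separates the 7 that rose from the 8 that fell, and only for ZNF507 do the groups overlap.

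Of 25 ZNF genes listed for a known role 21 were members, and of these 0 rose, ZNF146 fell and 20 did not pass, where 10.5% of the genes of the same level and 15.9% of all genes passed in either direction. ZNF207 (BuGZ), a spindle protein that carries BUB3 to kinetochores, was the most abundant member, with 246, 229 and 217 CPM in triptolide libraries, against 201, 235 and 203 CPM in untreated libraries. The groups overlapped (log2 fold change 0.11 ± 0.15, edgeR adjusted p = 0.653). ZNF207 shares 14.6% of its windows with another gene, so its counts are uncertain. Per kilobase of transcript ZNF207 was also first among members, at 101 CPM per kb with triptolide and 93.3 CPM per kb without, and ZNF787 was next in untreated cells, at 23.2 CPM per kb with triptolide and 47.1 CPM per kb without.

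ZNF217, an oncogene product found with CoREST and CtBP repressor complexes, had 156, 213 and 230 CPM with triptolide, against 199, 197 and 114 CPM without. Untreated replicate 3 was the lowest library (log2 fold change 0.23 ± 0.23, edgeR adjusted p = 0.525). ZNF598, the ubiquitin ligase that marks collided ribosomes, had 124, 70.9 and 80.6 CPM with triptolide, against 85.3, 86.2 and 93.5 CPM without. Triptolide replicate 1 was highest and the other triptolide libraries lowest (log2 fold change 0.05 ± 0.20, edgeR adjusted p = 0.889). ZNF598 shares 10.7% of its windows with other genes, so its counts are uncertain too. ZNF106, an RNA-binding protein, had 95.0, 98.9 and 133 CPM with triptolide, against 114, 108 and 57.3 CPM without. The spread within groups was as wide as that between them (log2 fold change 0.23 ± 0.24, edgeR adjusted p = 0.562).

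Several of the listed genes act in transcription by RNA polymerase II. ZNF143, an activator of snRNA genes and of promoters at chromatin loops, had 23.9, 20.7 and 21.7 CPM with triptolide, against 27.3, 26.7 and 24.7 CPM without. Its groups did not overlap, though the difference did not pass (log2 fold change -0.25 ± 0.16, edgeR adjusted p = 0.323). The related factors ZNF148 (ZBP-89) and ZNF281 (ZBP-99) had log2 fold changes of -0.37 ± 0.19 (edgeR adjusted p = 0.212) and -0.06 ± 0.23 (0.883). ZNF326, a subunit of the DBIRD complex that links splicing to elongation, had 43.1, 54.2 and 54.6 CPM with triptolide, against 69.4, 61.1 and 54.7 CPM without (edgeR adjusted p = 0.285). ZNF131 had a log2 fold change of 0.00 ± 0.16 (edgeR adjusted p = 0.999). Without untreated replicate 3 and triptolide replicate 1, a choice made after seeing the data, ZNF148 (edgeR adjusted p = 0.039), ZNF143 (0.0473) and ZNF592 (0.0242) fell.

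Other listed genes act in silencing or on chromatin. ZNF638, which directs HUSH-dependent silencing of unintegrated DNA, had 44.1, 70.6 and 69.8 CPM with triptolide, against 80.8, 83.4 and 69.9 CPM without. Triptolide replicates 2 and 3 lay next to untreated replicate 3 (log2 fold change -0.34 ± 0.20, edgeR adjusted p = 0.266). ZNF644, a partner of the G9a and GLP methyltransferases, had a log2 fold change of -0.19 ± 0.22 (edgeR adjusted p = 0.605). ZNF687 and ZNF592, which bind ZMYND8, had 0.41 ± 0.18 (edgeR adjusted p = 0.142) and -0.26 ± 0.17 (0.337). ZNF274, a KRAB protein that brings SETDB1 to the 3' ends of ZNF genes, had 41.3, 33.9 and 38.5 CPM with triptolide, against 37.0, 37.6 and 34.5 CPM without (edgeR adjusted p = 0.837). ZNF91, a KRAB repressor of SVA elements, has 31 fingers, as many as ZNF142 and the most of any member. It had 10.3, 17.3 and 17.7 CPM with triptolide, against 15.1, 15.8 and 11.3 CPM without (edgeR adjusted p = 0.789). For ZNF274 and ZNF91 the groups overlapped. Of the remaining listed members, ZNF622, of 60S ribosome maturation, the dsRNA-binding ZNF346, the SUMO ligase ZNF451, ZNF267, ZNF24 and ZNF292 had edgeR adjusted p-values from 0.516 to 0.814.

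Counts are given next by domain, finger number, chromosome and level. They stand beside 3.34% risen and 7.19% fallen among genes of the same level, and 10.0% and 5.82% among all genes tested. No class was tested against these shares, and in small classes few calls would be expected at such shares. Of the 57 members with a KRAB A box 6 rose and 0 fell, and of the 85 in which the pattern found none 1 rose and 8 fell. The medians were close, at log2 -0.051 with KRAB and -0.087 without, and the difference between these sets was not tested. The split moved with the setting: 3 KRAB members fell with DESeq2 and 6 with an offset for GC content, and without untreated replicate 3 and triptolide replicate 1 together 7 KRAB members fell and 5 members without KRAB rose. By finger number 0 rose and 0 fell of 23 members with 0 to 3 fingers, 3 rose and 7 fell of 61 with 4 to 9, and 4 rose and 1 fell of 58 with 10 or more. On chromosome 19 lay 3 of the risen and 4 of the fallen members. By untreated level, 6 rose and 2 fell of the 69 members at 10 to 20 raw CPM, and 0 rose and 5 fell of the 34 at 40 raw CPM or more. These classes were cut on the untreated level itself, which favours rises in a low class and falls in a high one. The counts by level are therefore a description only. The SCAN domain, which pairs proteins with one another, is known in 14 members, a list made after the values had been seen. Of these 0 rose, ZNF202 fell and the median was -0.13. ZNF263 had 41.3, 45.1 and 43.8 CPM with triptolide, against 35, 33.9 and 37.4 CPM without, and ZNF496 had 61.4, 53.8 and 57.5 CPM, against 84.8, 80.5 and 69.2 CPM. Neither passed (edgeR adjusted p = 0.222 and 0.0795), although the groups of both were separate.

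**Figure D3:**
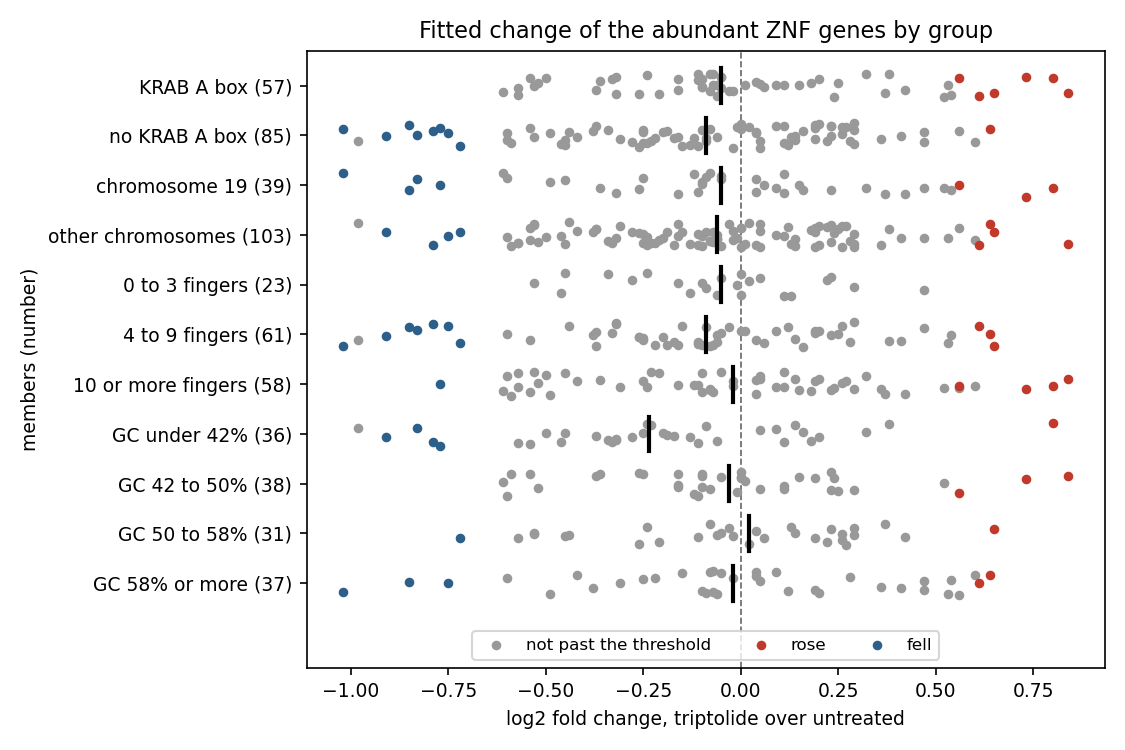
Fitted log2 fold change of triptolide over untreated for each member, by KRAB A box, chromosome, finger number and GC content of the transcript; black ticks are group medians and each member appears once per property. The 6 risen members with a KRAB A box by the pattern and the 8 fallen members in which none was found stand at the ends of the upper rows.

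GC content of the transcript tracked the members' levels differently in each library. Across the 142 members, which share these libraries, the Spearman correlation of GC with the level relative to the gene's own mean was 0.79, -0.40 and -0.47 in triptolide replicates 1 to 3, and -0.38, -0.49 and 0.28 in untreated replicates 1 to 3. Triptolide replicate 1 and untreated replicate 3 had the opposite sign to the other libraries. The 36 members with GC under 42% had a median log2 fold change of -0.234, with 1 risen and 4 fallen. The 1832 genes of the same level and GC had a median of -0.224, with 8 risen and 181 fallen. Members of 42 to 50% GC had a median of -0.033, of 50 to 58% GC 0.018, and of at least 58% GC -0.017. With an offset for GC in each library 12 members rose and 27 fell, among them all 7 that rose and 7 of the 8 that fell without it. The exception was ZNF507 (edgeR adjusted p = 0.053). Without triptolide replicate 1 and untreated replicate 3 together, 14 members rose and 27 fell. The share of all genes called under these settings is not given, so the counts are not read as particular to ZNF genes.

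**Figure D4:**
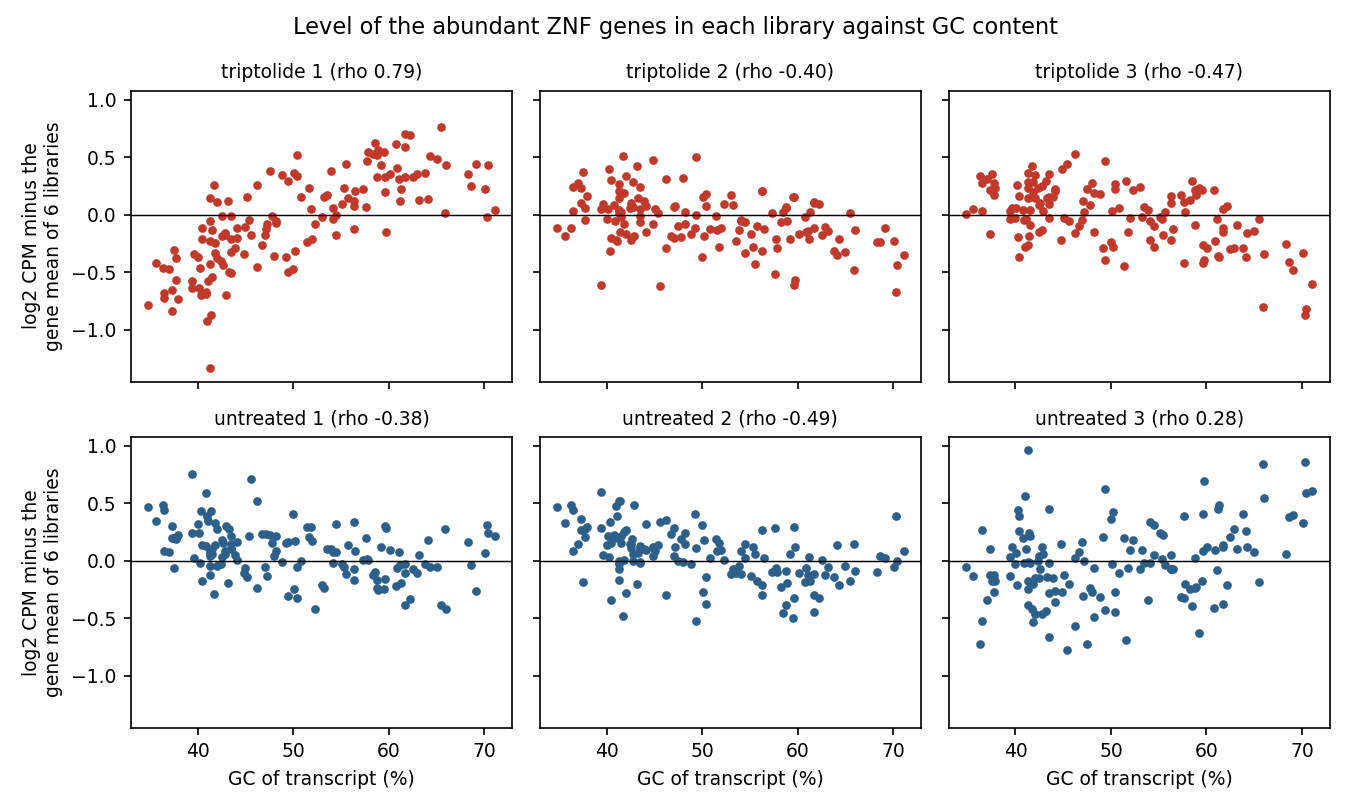
Level of each of the 142 members in each library, as log2 CPM minus the gene's mean over the 6 libraries, against GC content of the transcript in percent; triptolide libraries are in the upper row and untreated libraries in the lower row. The slope is upward in triptolide replicate 1 and untreated replicate 3 (rho 0.79 and 0.28) and downward in the other 4.

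The 3 risen members of chromosome 19 lay in one physical block of KRAB genes in which ZNF genes under the level also rose. Chromosome 19 genes with a symbol of ZNF plus a number were split into blocks where neighbours lay more than 500000 bases apart in GENCODE 29, a rule chosen after the values had been seen. The block from ZNF175 to ZNF331 holds 38 such genes, 5 of them members. It was singled out because it holds risen members, so their rises are not an independent result. Of 29 tested, all with a KRAB A box, 15 rose and 0 fell, where 10.0% of all genes tested rose and 5.82% fell. Of these 29 genes 24 were under the level. A positive fold change was seen in 27 of the 29, and their median was 0.73 on the log2 scale over all 29. This median lay between 0.72 and 0.89 under each other scaling. Of the 27 that reached the count filter in all 3 untreated libraries 13 rose, and their median was 0.725. In the other blocks with at least 10 tested genes between 0 and 2 genes rose, and medians ran from -0.321 to 0.249. Over all 160 tested ZNF genes of chromosome 19 outside the block, whose median untreated level was 5.41 raw CPM against 5.28 in the block, 5 rose, 8 fell and the median was 0.065.

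Summed over the block's 38 genes, levels were 243, 303 and 309 CPM in the triptolide libraries, against 200, 193 and 170 CPM in the untreated libraries. The sums did not overlap. Over the other ZNF genes of chromosome 19 the sums were 1400, 1450 and 1440 CPM with triptolide and 1470, 1480 and 1520 CPM without, so that they were slightly lower with triptolide. Of the block's 5 members ZNF83, ZNF160 and ZNF331 rose, and ZNF766 (log2 fold change -0.32 ± 0.20, edgeR adjusted p = 0.291) and ZNF480 (0.32 ± 0.20, 0.314) did not pass. Among genes under the level, ZNF468 had 11.6, 14.3 and 15.2 CPM with triptolide, against 5.50, 7.48 and 5.01 CPM without (log2 fold change 1.19 ± 0.21, edgeR adjusted p = 0.00314). ZNF28, its near neighbour, had 5.92, 8.49 and 8.79 CPM with triptolide, against 3.70, 2.88 and 2.64 CPM without (log2 fold change 1.34 ± 0.24, edgeR adjusted p = 0.00304). ZNF528 had 9.95, 12.2 and 14 CPM with triptolide, against 6.45, 5.98 and 5.12 CPM without (log2 fold change 1.04 ± 0.20, edgeR adjusted p = 0.00512). In each of these 3 genes every triptolide library was above every untreated one, and at most 2.3% of their windows were shared with another gene.

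The smallest adjusted p of the block belonged to ZNF888, with 2.90, 3.06 and 2.88 CPM with triptolide, against 1.01, 1.05 and 0.716 CPM without (log2 fold change 1.66 ± 0.26, edgeR adjusted p = 0.0016). The remaining risen genes were ZNF610, ZNF880, ZNF761, ZNF808, ZNF577, ZNF432, ZNF350 and ZNF701, with log2 fold changes from 0.81 to 2.04. ZNF808 shares 17.7% of its windows with another gene, chiefly ZNF701, so their counts are uncertain. Another 8 protein-coding genes of the table lie inside the block, of which PPP2R1A, the scaffold subunit of protein phosphatase 2A, and SPACA6 were tested. PPP2R1A had 706, 506 and 499 CPM with triptolide and 468, 509 and 559 CPM without, and SPACA6 had 6.17, 4.03 and 5.63 CPM with triptolide and 3.76, 3.60 and 4.96 CPM without; neither passed (edgeR adjusted p = 0.595 and 0.339). Median GC of the tested block genes was 40.8%, and 23 of them rose with the GC offset. Leaving out 1 library in turn gave 8 to 16 risen block genes, the fewest without untreated replicate 2, with 0 fallen in each case.

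**Figure D5:**
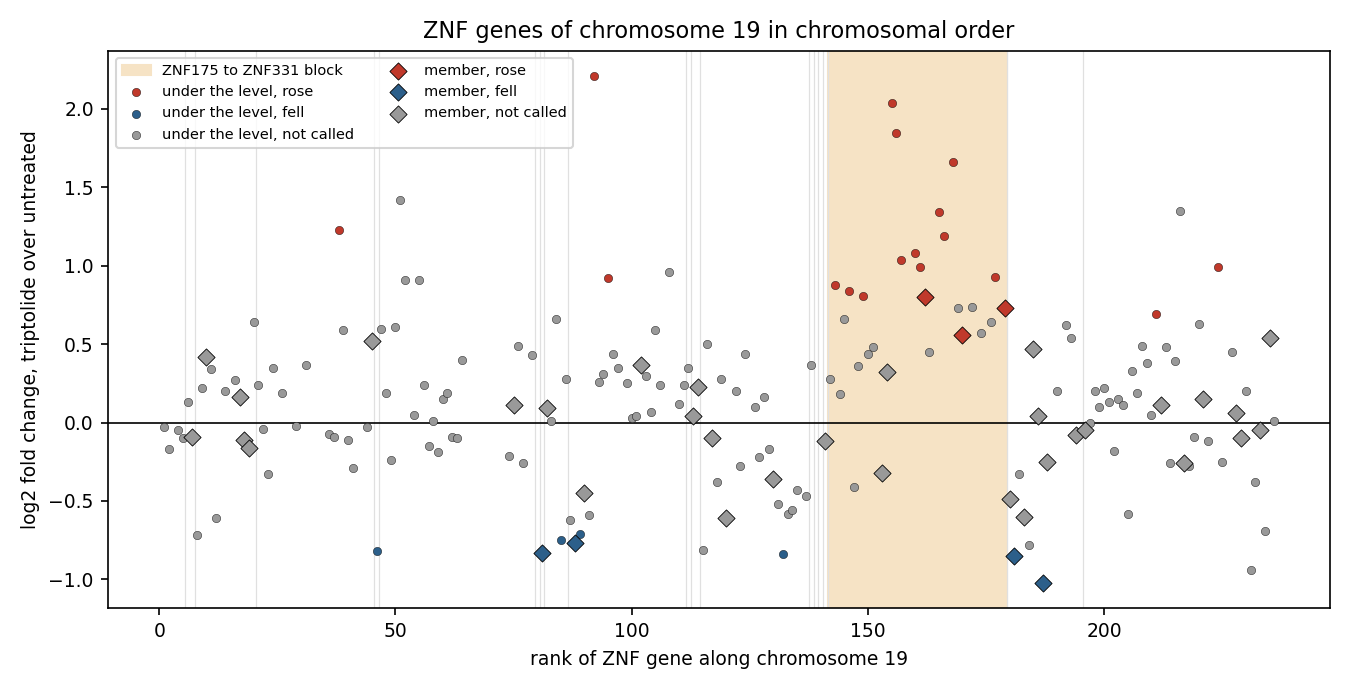
Fitted log2 fold change of triptolide over untreated for tested ZNF genes of chromosome 19, in the order of the genes along the chromosome; diamonds are members, circles are genes under the level, and vertical lines separate blocks. In the shaded ZNF175 to ZNF331 block 15 of 29 tested genes rose and 0 fell, where 10.0% of all genes tested rose and 5.82% fell.

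The run of ZNF genes next to that block, from ZNF628 to ZNF835, holds 8 members, of which ZNF787 and ZNF579 fell and 0 rose, with a median of -0.37. Among genes of the same level 7.19% fell and 3.34% rose, and a difference from that was not tested. Of its 13 tested genes 4 had a KRAB A box. The last block of the chromosome, from ZNF264 to ZNF446, also holds 8 members, of which 0 rose and 0 fell, with a median of 0.007.

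Outside the set, 243 of the 313 autosomal ZNF genes under the level were tested, and 23 rose, 7 fell and the median log2 fold change was 0.164. Among all genes tested 10.0% rose and 5.82% fell. That set includes the 8085 autosomal protein-coding genes at 10 raw CPM or more, of which 3.34% rose. The share for other genes under the level is not given, so the risen count is not read as particular to ZNF genes. The ZNF genes under the level were chosen for a low untreated level, which by itself favours a higher level in the other group. Of the 192 tested with a KRAB A box 21 rose and 5 fell, with 12 of the risen in the ZNF175 to ZNF331 block.

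The machinery that KRAB proteins recruit was measured alongside. Of 24 genes of KRAB repression 0 rose and 2 fell, with a median log2 fold change of -0.128. This is close to autosomal protein-coding genes at 10 raw CPM or more, of which 3.34% rose and 7.19% fell, with a median of -0.103. TRIM28, the KRAB corepressor, had 1485, 896 and 948 CPM with triptolide, against 803, 835 and 1075 CPM without. The groups overlapped (log2 fold change 0.30 ± 0.21, edgeR adjusted p = 0.383). CBX1, the HP1 beta protein, fell, with 102, 135 and 130 CPM with triptolide, against 201, 193 and 183 CPM without (log2 fold change -0.65 ± 0.16, edgeR adjusted p = 0.0187). TASOR, a subunit of the HUSH silencing complex, also fell, with 34.9, 45.2 and 44.7 CPM, against 69.1, 67.4 and 51.6 CPM (log2 fold change -0.59 ± 0.18, edgeR adjusted p = 0.0451). SETDB1 had 21.0, 22.4 and 22.3 CPM with triptolide, against 32.6, 31.9 and 24.3 CPM without. Its groups were apart, but the difference did not pass (log2 fold change -0.44 ± 0.17, edgeR adjusted p = 0.11).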

How the data were processed

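RNA of 6 MIA PaCa-2 libraries was sequenced after oligo(dT) capture, per the labels' protocols. The counts the authors deposited are whole numbers, 1 row per Ensembl ID, made with HISAT2 and featureCounts per the submitters' processing notes. Tool versions, genome build, strand and multi-mapping settings were not given in the sources used here. Counts of overlapping, antisense and near-identical genes are therefore uncertain.

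Symbols came from the gene name table, and types, order, GC, fingers and KRAB boxes from GENCODE 29. Of the members, 93 share no 100-base window with another gene and 21 share at least 10%. Testing used edgeR 4.0.16 in R 4.3.3 (filterByExpr, TMM scaling, glmQLFTest), with Benjamini-Hochberg adjustment over all genes tested. The fit was also run on counts simulated from its own estimated spread, without GC trends by library. That run therefore cannot show how the fit handles the GC trends of these libraries. Alternatives used limma 3.58.1 and DESeq2 1.42.0, and figures matplotlib 3.10.9. Members and lists were chosen with earlier results of these data known. Named genes were the called members, the 6 most abundant, those next to the level, a list of known roles, the KRAB partners past the threshold with TRIM28 and SETDB1, and up to 2 a direction of related lists.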

Additional observations from a re-analysis of the deposited data

How the results depend on the processing

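The counts of risen and fallen members moved with scaling, filter, tool and library, and the cause was not tested. The share of all genes called under each setting is not given beside them. Against 7 risen and 8 fallen members, scaling on ribosomal protein genes gave 2 and 0, a mean of at least 5 CPM gave 4 fallen, DESeq2 gave 14 fallen, and the GC offset gave 12 and 27. Risen counts moved too. With DESeq2 6 members with a KRAB A box and 3 others rose, and with library totals 7 and 3 rose. With no low-count filter 1 member with a KRAB A box and 10 others fell. Without both untreated replicate 3 and triptolide replicate 1 the counts were 14 and 27, and 17 block genes rose. Leaving out 1 library in turn gave 1 to 9 risen and 5 to 14 fallen members. Choosing members on the triptolide mean gave 13 risen. The median log2 fold change, -0.063, was 0.002 with library totals, 0.113 with ribosomal protein scaling, 0.017 with the filter at 5 CPM, 0.056 for members chosen on the triptolide mean and -0.002 for those chosen on the mean of all 6 libraries. With single libraries left out it stayed between -0.063 and -0.017. RLE size factors and limma-voom left both counts as they were, and with no low-count filter the median of all genes tested was 0.127. The 15 risen genes of the ZNF175 to ZNF331 block became 8 with the 5 CPM filter, 23 with the GC offset and 8 to 16 with single libraries left out. The filter at 5 CPM ended the calls of ZNF146, ZNF507, ZNF579 and ZNF692, library totals those of ZNF146 and ZNF507, and the absence of a filter that of ZNF160. No called gene changed sign under any alternative. Same-numbered triptolide and untreated libraries did not deviate together (correlations -0.022, -0.039 and -0.652). With 3 libraries a group, and 1 in each apart from the rest, such values cannot show whether replicate numbers pair them by design. A fit with the replicate block called 3 risen and 9 fallen members, and 19 fallen together with the GC offset. Every member had at least 56 counts in each library, and the median SE of a member's log2 fold change was 0.19.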

Other observations

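The 8 ZNF genes of the X chromosome were all tested and none rose or fell in edgeR's test, and their median log2 fold change was -0.282. Among all genes 15.9% passed. Among these, ZNF41 had 14.7, 20.8 and 19.8 CPM with triptolide, against 28.1, 26.2 and 21.4 CPM without, with separate groups and an edgeR adjusted p of 0.134.

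Related zinc finger families are given beside all genes tested, of which 10.0% rose and 5.82% fell. They also stand beside the genes of the same level, of which 3.34% rose and 7.19% fell, so that falls outnumbered rises there too. Of 37 tested ZBTB genes, whose proteins pair the fingers with a BTB domain, 0 rose and 6 fell. ZBTB22 had 11.1, 7.92 and 9.31 CPM with triptolide, against 18.6, 18 and 20 CPM without (log2 fold change -1.0 ± 0.18, edgeR adjusted p = 0.00373), and ZBTB4, a reader of methylated DNA, had 41.9, 36.3 and 38.9 CPM, against 78.4, 69.9 and 56.5 CPM (edgeR adjusted p = 0.0084). Of 20 tested ZNF genes with a letter suffix 0 rose and 3 fell, among them ZNF587B, with 3.09, 3.98 and 4.43 CPM with triptolide, against 9.87, 9.92 and 10.9 CPM without (log2 fold change -1.40 ± 0.21, edgeR adjusted p = 0.000928), and ZNF512B (-0.72 ± 0.20, 0.0282). Of 17 tested ZFP genes 1 rose, ZFP3 (0.71 ± 0.22, edgeR adjusted p = 0.0488), and 3 fell, among them ZFP1 (-0.75 ± 0.20, 0.0278) and ZFP62 (-0.62 ± 0.17, 0.0285). Of 22 tested ZSCAN and ZKSCAN genes 0 rose and 0 fell, with a median of -0.041.

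Some members missed the threshold by little, and they are named after their values were seen. ZNF22 had 3.53, 9.01 and 7.43 CPM with triptolide, against 9.53, 12.8 and 17.4 CPM without (log2 fold change -0.98 ± 0.31, edgeR adjusted p = 0.0523), and 39.0% of its windows are shared with another gene, so its counts are uncertain. ZNF672 had 84.6, 55.7 and 55.0 CPM with triptolide, against 41.7, 41.9 and 45.3 CPM without (0.60 ± 0.19, edgeR adjusted p = 0.0545). ZNF45, a KRAB gene, had 7.37, 8.27 and 9.07 CPM with triptolide, against 14.5, 12.9 and 10.3 CPM without (-0.61 ± 0.20, edgeR adjusted p = 0.0545). The groups of all 3 were separate.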
